A study of Mus musculus with 10 samples.

Results

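Chromatin accessibility was examined at peaks that lie in introns beyond the first of a gene, in naive CD4 T cells with and without Satb1. Members were the peaks that the authors' annotation places in an intron other than intron 1 of a transcript and that held a summed count of at least 100 over the 10 libraries. This gave 5178 peaks, 43.0% of the 12045 peaks annotated to such introns and 15.1% of the 34198 nuclear peaks that reached the same count. The threshold was not a natural gap: 493 members had a summed count from 100 to under 110, and 578 other peaks of these introns lay from 90 to under 100.

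ATAC-seq uses a transposase that cuts and tags open DNA, so the number of reads in a peak follows how accessible that stretch is. The KO group consisted of 5 libraries from Satb1fl/fl x CD4-CreERT2wt/+ mice given tamoxifen, and the WT group of 5 libraries from untreated mice of the same genotype. Every mouse therefore carried the floxed Satb1 alleles and the tamoxifen-inducible Cre recombinase under control of CD4, and KO differed from WT in tamoxifen as well as in Satb1 deletion, which cannot be told apart. Each library was made from 60000 cells of spleen and lymph node sorted for a naive helper T cell phenotype that included CD3+, CD4+, CD25- and low or absent CD44. The labels do not say whether the libraries came from separate animals, so a p-value here reflects how far these libraries vary, which may be technical. Libraries are called KO or WT replicate 1 to 5 in the order of their accession, and the numbers pair nothing.

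Introns beyond the first make up much of the length of mammalian genes, and open sites within them are often enhancers, stretches bound by transcription factors that can act on the host gene or on a neighbour. Some are start sites of shorter transcripts or of another gene, and microRNA genes are often carried there too. SATB1 is a nuclear protein abundant in thymocytes and T cells that binds AT-rich DNA and organises chromatin loops between such elements and promoters.

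The sequences shown first belong to members that touch a known transcript start or lie nearest to a microRNA gene. In all, 56 members overlapped a RefSeq start window (250 bases before to 50 after a start, build GRCm38.p6), and for 26 the start was that of the host gene. The background was 2.96% of all tested peaks higher and 0.974% lower in KO (edgeR's quasi-likelihood test with Benjamini-Hochberg adjustment, threshold 0.05). None of the 56 was higher and 1 was lower; at an unadjusted p under 0.05 edgeR found 1 higher and 5 lower, limma-voom called 0 higher and 1 lower, and DESeq2 called none. The lower one lay in intron 4 of 5 of Ldlrad3 (chr2:101991820-101992016), over the start of the predicted gene Gm39888, and is described with the falls below. Its part inside the start window is printed with 2 others that were not called, the internal start of Runx1 in intron 2 (chr16:92697377-92697552) and that of Ehbp1 in intron 2 (chr11:22286818-22287409). Capitals mark matches to TGTGGT (the core of RUNX sites) or GGGCGG (a GC box) on either strand; other motifs searched had no match in these 3.
Ldlrad3 intron peak, chr2:101991820-101991979, plus strand: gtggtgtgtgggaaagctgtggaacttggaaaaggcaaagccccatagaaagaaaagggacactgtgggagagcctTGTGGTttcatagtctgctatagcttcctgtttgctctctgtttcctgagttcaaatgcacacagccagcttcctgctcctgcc
Runx1 internal start, chr16:92697377-92697552, minus strand: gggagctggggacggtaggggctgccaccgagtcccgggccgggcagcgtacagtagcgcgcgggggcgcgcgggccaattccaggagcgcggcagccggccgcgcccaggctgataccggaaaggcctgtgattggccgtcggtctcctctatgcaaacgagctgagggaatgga
Ehbp1 internal start, chr11:22286818-22287045, minus strand: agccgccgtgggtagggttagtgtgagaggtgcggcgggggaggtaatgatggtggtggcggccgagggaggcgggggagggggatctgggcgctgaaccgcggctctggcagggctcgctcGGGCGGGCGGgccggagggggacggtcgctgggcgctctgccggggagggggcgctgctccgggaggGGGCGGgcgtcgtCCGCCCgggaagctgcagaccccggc

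The Runx1 and Ehbp1 stretches were rich in G and C, at 70.5% and 77.2%, against 50.0% in the Ldlrad3 stretch. Runx1, a transcription factor of T cell development, averaged 12.2 ± 3.35 CPM in KO and 9.05 ± 1.96 in WT at this peak (SD, n = 5 each, adjusted p = 0.540), where CPM is the count scaled to the library's total in nuclear peaks, in the usual parts-per-million unit, after TMM scaling. Ehbp1, which encodes a protein linking endocytosis to actin, averaged 59.2 ± 12.7 CPM in KO and 60.4 ± 6.01 in WT (adjusted p = 0.954). Of the 58 complete start windows that members overlapped, 43.1% held GGAAGT (an ETS site), against 23.8% of all 32851 RefSeq windows. The AP-1 site TGANTCA was in 13.8% of those windows, against 7.81% of all. The RUNX motif was in 17.2% against 16.8%, the GC box in 31.0% against 35.7%, and the GATA site AGATAA in 8.62% against 11.2%, each counted on either strand. Some of these windows overlap each other almost wholly, as those of Gm31619 do, so the same site can count repeatedly. Each window was searched whole, also where the peak covered only a small part of it. The RefSeq windows were taken whether open or not, and no difference in share was tested. These matches describe letters and do not show binding.

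MicroRNAs are short RNAs that pair with messenger RNAs through their seed, bases 2 to 8, and lower their output. For 281 members the nearest annotated start belonged to 1 of 123 microRNA genes, and 12 of them (4.27%) were higher and 8 (2.85%) lower in KO. The mature RefSeq sequences next to the largest rise, the largest falls and the host gene with most such calls are given with the seed in capitals, to show which RNAs the positions refer to.
miR-21a-5p (chr11:86584120-86584141, minus strand; peak in Vmp1): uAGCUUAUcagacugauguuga
miR-21a-3p (chr11:86584082-86584103, minus strand; peak in Vmp1): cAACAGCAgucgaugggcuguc
miR-484 (chr16:14159630-14159651, plus strand; peak in Bmerb1): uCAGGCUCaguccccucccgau
miR-669n (chr3:115979905-115979924, plus strand; peaks in Slc30a7): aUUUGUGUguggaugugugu

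No seed was shared among the 21 mature microRNAs listed next to called members. The Vmp1 and Bmerb1 peaks are described with the rises and falls, and those in Slc30a7 with the host genes. ATAC-seq does not measure the microRNAs themselves.

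Counts in nuclear peaks ranged from 660107 to 2167685 per KO library and from 1009853 to 2063791 per WT library, and the median member held 8 to 26 counts per library, so single members carry a large counting error. Members held 8.39 ± 0.308% of in-peak counts in KO and 8.33 ± 0.371% in WT (SD, n = 5 each), a difference smaller than either SD. Promoter peaks were present at all 12 naive CD4 T cell markers, with a summed level of 665 to 715 CPM in KO and 655 to 692 in WT. None of 6 B cell markers had one. Of the myeloid markers 2 of 6 had one (9.23 to 18.4 CPM in KO, 13 to 19.7 CPM in WT), of the CD8 and NK markers 2 of 6 (54.6 to 76.9 CPM in KO, 65 to 75.8 CPM in WT, with peaks at Cd8b1 and Prf1 and none at Cd8a) and of the erythroid and stromal markers 5 of 6 (106 to 123 CPM in KO, 104 to 123 CPM in WT), so no list separated the groups. Between replicates, 10 of 20 within-group pairs differed by no more than counting noise (chi-square test over peaks), but these pairs did not form closed sets, and all 10 libraries were kept as separate samples.

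The targeted gene itself held 5 members, and none was called. In intron 5 of 10 of Satb1, the peak at chr17:51789293-51789454 held 6.61, 4.79, 3.08, 7.76 and 7.32 CPM in KO replicates 1 to 5, and 7.98, 11.2, 11, 9.81 and 6.19 CPM in WT replicates 1 to 5. The groups overlapped, with WT replicate 5 below 3 of the KO libraries, and the log2 fold change was -0.53 ± 0.26 (SE, adjusted p = 0.339). The other peak of intron 5 (chr17:51800291-51800575) averaged 25 ± 4.26 CPM in KO and 19.6 ± 2.65 in WT. Both peaks of intron 9 averaged less in KO, at 17.3 ± 2.40 CPM in KO against 22.0 ± 3.10 CPM in WT (chr17:51762599-51762794) and 7.52 ± 3.61 CPM in KO against 11.3 ± 2.90 CPM in WT (chr17:51763627-51763844). The intron 2 peak (chr17:51806727-51806796) averaged 5.49 ± 1.20 CPM in KO and 7.15 ± 0.436 in WT. Adjusted p-values of the 5 ran from 0.339 to 0.662, 1 was lower at an unadjusted p under 0.05, and neither DESeq2 nor limma-voom called any. The floxed part of Satb1 is not given in the labels, so the deletion cannot be checked with these peaks.

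Accessibility of introns beyond the first changed at a minority of peaks, and more of those rose than fell. Of the 5178 members, 264 (5.10%) were higher and 100 (1.93%) lower in KO, 364 in all, beside 3.93% of all tested peaks called (2.96% higher, 0.974% lower). The median fold was 1.87 among the higher and 0.610 among the lower members, and the median log2 fold change over all members was -0.01, as over all tested peaks. Higher members had a median level of 20.0 CPM in KO and 9.44 in WT, and lower members 13.9 CPM in KO and 22.7 in WT. KO and WT libraries did not overlap at 327 members (6.32%), beside 3.95% of all tested peaks (2.74% with all KO libraries above, 1.21% with all below). At least 2-fold rises numbered 109 (2.11% of members, beside 1.07% of all tested peaks), and falls to 0.5-fold or less 14 (beside 0.108% of all tested peaks). The counts of calls depend on the tool and on depth: DESeq2 called 138 higher and 22 lower, and after all libraries were thinned to the smallest total 104 were higher and 17 lower.

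**Figure D1:**
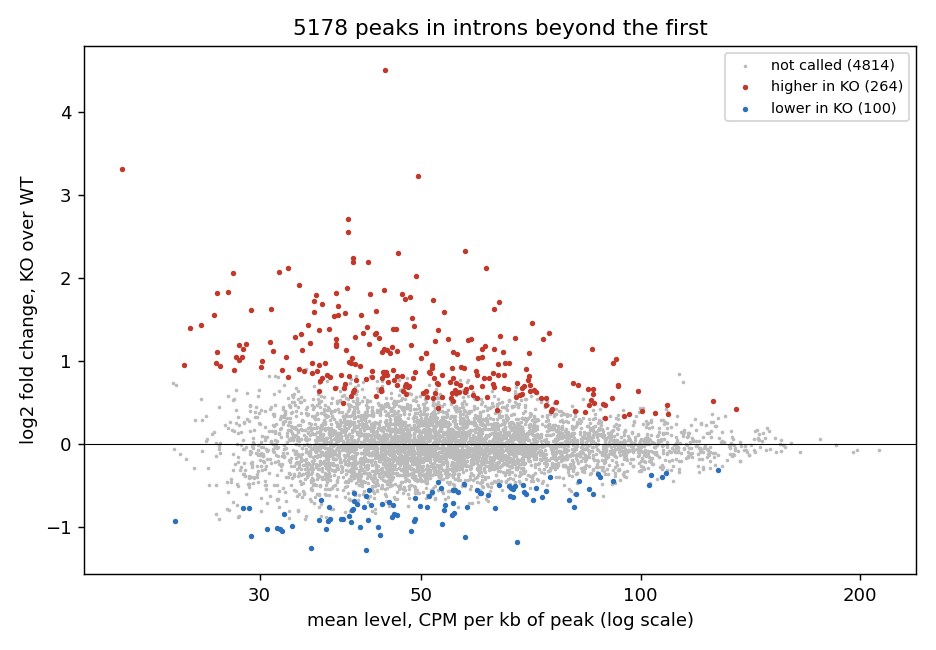
Log2 fold change of KO over WT (vertical axis) against the mean level in CPM per kb of peak (horizontal, log scale) for the 5178 peaks in introns beyond the first. The 264 higher peaks reach 4.51 on the log2 scale, whereas the 100 lower peaks reach -1.28.

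Peaks of other classes gave a scale for these counts. In the first intron 5.03% of 3261 tested peaks were higher and 1.20% lower, and between genes 4.49% of 7279 were higher and 1.42% lower. At promoters 1.27% of 15963 peaks were higher and 0.376% lower. Since more counts make a change easier to call, classes were also set side by side within bands of summed count. With 150 to under 250 counts, 5.21% of members were higher and 1.49% lower, against 1.97% higher and 0.528% lower at promoters. In the first intron these shares were 5.16% and 0.955%, and between genes 5.56% and 1.63%, so members were close to both. With 500 or more counts it was 4.80% higher and 3.60% lower among members, against 0.652% and 0.217% at promoters. The first intron had 5.80% and 3.19% in that band, and peaks between genes 4.81% and 2.04%. With 250 to under 500 counts 7.56% of members were higher and 3.45% lower, against 5.67% and 1.97% in the first intron and 6.20% and 2.29% between genes. With 100 to under 150 counts it was 3.52% and 0.906% among members, against 4.16% and 0.189% in the first intron and 2.37% and 0.466% between genes. Peaks are not replicates, and the class shares were not tested against each other.

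**Figure D2:**
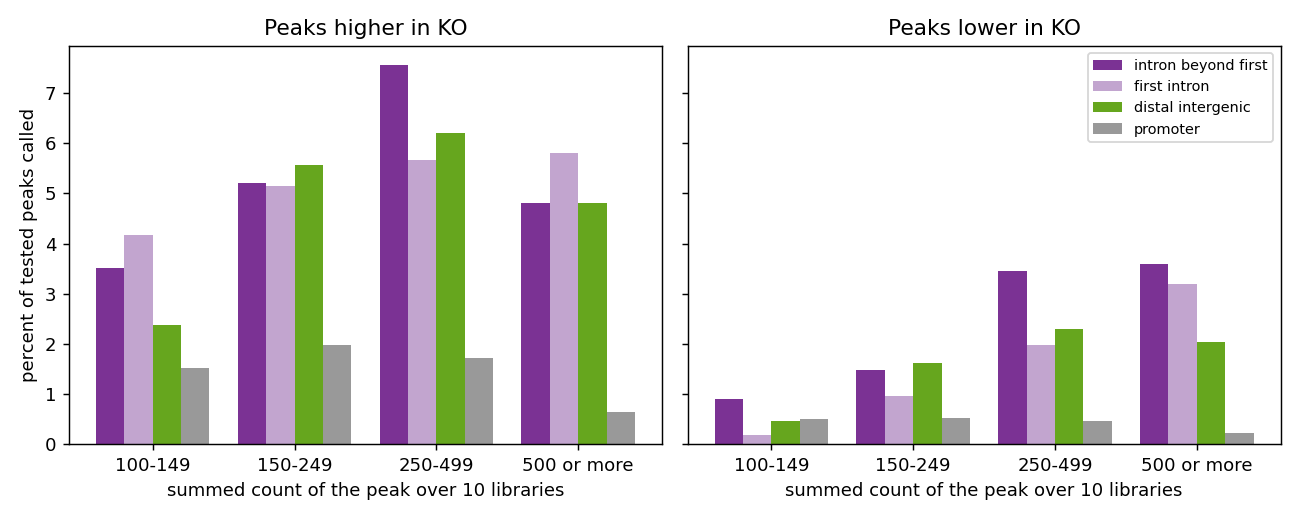
Percent of tested peaks called higher (left) and lower (right) in KO by annotation class, within bands of summed count over the 10 libraries. Bars for peaks in introns beyond the first lie above those for promoters in each band, for example at 4.80% higher against 0.652% with 500 or more counts. Bars for first introns and for peaks between genes are similar or higher in some bands.

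The largest rises were at peaks with WT means below the median WT level of all members, 11.5 CPM, which a choice by fold favours. The 12 members with the largest rises among those whose libraries did not overlap, 1 per host gene, had a mean of 12.3 to 37.9 CPM in KO and 0.922 to 6.69 in WT, and edgeR's folds ran from 4.20 to 22.8. The lack of overlap at each of the 12 therefore follows from the choice and adds no support. All 12 were also called by DESeq2 and under each other processing that tested them. Of the 12, 7 had a summed count under 200 and were not tested with that minimum.

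Camk2d, which encodes a calcium- and calmodulin-dependent kinase, held the strongest one, in intron 14 of 16 (chr3:126825005-126825266, 228054 bp from the nearest start). KO replicates 1 to 5 held 27.9, 9.59, 21.5, 29.6 and 23.8 CPM, and WT replicates 1 to 5 held 0.997, 2.03, 0.960, 0 and 0.619 CPM. Each KO library lay above each WT library, although KO replicate 2 was well below the other KO libraries. The log2 fold change was 4.51 ± 0.34 (SE, adjusted p = 1.97e-18).

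The Acoxl peak lay in intron 14 of 17 (chr2:128060843-128061263), and its nearest start, 64775 bp away, was that of Bcl2l11, which encodes the death-promoting protein BIM. It held 41.1, 31.6, 43.1, 42.2 and 31.6 CPM in KO replicates 1 to 5, and 3.99, 3.05, 6.24, 3.27 and 2.47 CPM in WT replicates 1 to 5. No WT library came near a KO library, and the fold was 9.41 (log2 3.23 ± 0.21, adjusted p = 2.17e-22). Acoxl itself encodes a protein related to peroxisomal acyl-CoA oxidases.

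In Epsti1, an interferon-induced gene, the peak of intron 9 of 11 (chr14:77975686-77976032) held 9.55, 16.3, 7.69, 17.0 and 11 CPM in KO, and 0.997, 1.52, 1.44, 1.96 and 0 CPM in WT. All KO libraries were higher (9.95-fold, adjusted p = 3.21e-11). Mllt3, which encodes a subunit of the super elongation complex, rose 6.53-fold in intron 2 (chr4:88003216-88003472), with 13.4 to 26.7 CPM in KO and 1.86 to 4.32 in WT.

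The peak in intron 10 of 11 of Vmp1, an autophagy gene, lies 8902 bp upstream of the Mir21a start (chr11:86593060-86593331). It held 16.2, 19.2, 18.5, 20.9 and 14.6 CPM in KO replicates 1 to 5, and 6.98, 3.05, 3.36, 5.23 and 1.86 CPM in WT replicates 1 to 5. The lowest KO library was above the highest WT library, and the fold was 4.60 (adjusted p = 1.77e-10). The sequences of miR-21a-5p and miR-21a-3p above are the products of that neighbour gene.

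The remaining rises reached 17.0 to 31.7 CPM in KO. Elovl5, a fatty acid elongase, averaged 31.7 ± 3.52 CPM in KO and 6.43 ± 2.18 in WT at intron 3 (chr9:77961275-77961684). Xylt1, which starts the sugar chains of proteoglycans, averaged 28.6 ± 2.80 CPM in KO and 6.36 ± 1.02 in WT at intron 2 (chr7:117486479-117486763). Mmd averaged 27.2 ± 3.22 CPM in KO and 6.69 ± 1.5 in WT, also at intron 2 (chr11:90224830-90225359).

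Pde11a, a cyclic nucleotide phosphodiesterase, averaged 20.8 ± 2.67 CPM in KO and 3.41 ± 0.790 in WT at intron 9 of 19. Tasp1, the protease that cleaves MLL proteins, averaged 17.0 ± 2.56 CPM in KO and 3.54 ± 2.1 in WT at intron 2. The last introns of Immp2l and Fam129a held the remaining peaks, with 25.4 ± 5.10 CPM in KO against 5.26 ± 2.87 CPM in WT and 21.4 ± 2.06 CPM in KO against 4.20 ± 2.08 CPM in WT. For 7 of the 12 the nearest start was that of the host gene.

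**Figure D3:**
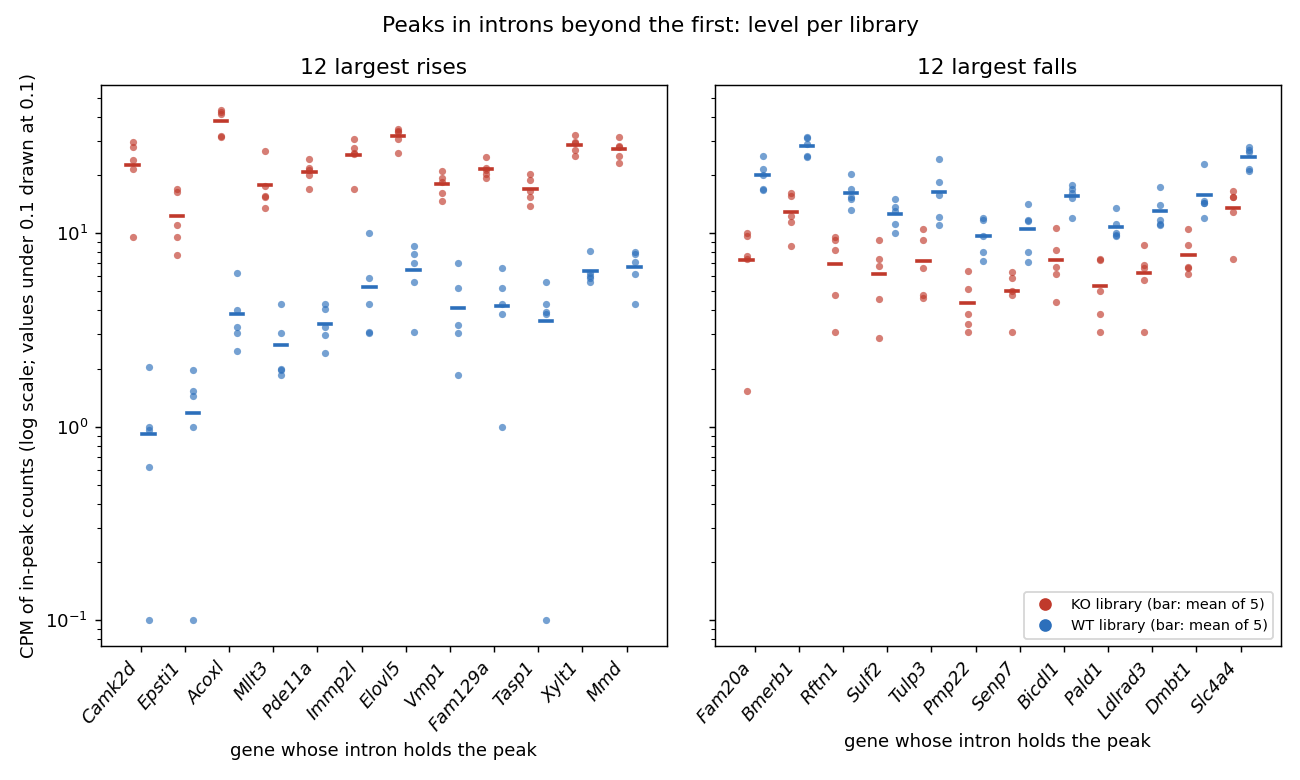
Level of each library in CPM (vertical axis, log scale, values under 0.1 drawn at 0.1) at the peaks with the 12 largest rises (left) and the 12 largest falls (right), named by the gene whose intron holds the peak; bars mark the mean of 5 libraries. KO libraries lie above all WT libraries on the left, where WT means reach only 6.69 CPM, and below them on the right, where the gap is smaller. The peaks were chosen for this lack of overlap.

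The falls were smaller than the rises. The 12 largest, chosen by the same rule, had means of 4.37 to 13.5 CPM in KO and 9.73 to 28.3 in WT, and folds of 0.413 to 0.533. Their lack of overlap is likewise part of the choice. DESeq2 called 6 of the 12, and 3 (those in Fam20a, Bmerb1 and Slc4a4) were called under each processing that tested them. The other 9 lost their call on thinning (adjusted p 0.0626 to 0.895).

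Fam20a, which encodes a pseudokinase of the secretory pathway, fell most. Its last intron, 22355 bp from the start of Prkar1a (a protein kinase A subunit), held the peak chr11:109671760-109672083. KO replicates 1 to 5 held 7.34, 7.67, 1.54, 9.70 and 10.1 CPM, and WT replicates 1 to 5 held 19.9, 21.3, 25, 17.0 and 16.7 CPM. The groups did not overlap, and the log2 fold change was -1.28 ± 0.21 (adjusted p = 3.14e-06).

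The Bmerb1 peak in intron 2 of 5 (chr16:14088189-14088656) had Mir484 as its nearest gene, 70970 bp away. It held 16.2, 8.63, 12.3, 15.5 and 11.4 CPM in KO replicates 1 to 5, and 28.9, 31.0, 25, 24.8 and 31.6 CPM in WT replicates 1 to 5. No KO library reached the lowest WT library (0.468-fold, adjusted p = 4.22e-07). Rftn1, which encodes the lipid raft protein raftlin, fell to 0.484-fold at intron 2 (chr17:50148239-50148477), with 6.97 ± 2.88 CPM in KO and 16.2 ± 2.60 in WT (adjusted p = 0.000549).

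The peak of Slc4a4, a bicarbonate cotransporter, in intron 7 of 24 (chr5:89090140-89090529) averaged 13.5 ± 3.68 CPM in KO and 24.7 ± 3.22 in WT. Tulp3, a ciliary trafficking gene, averaged 7.15 ± 2.64 CPM in KO and 16.3 ± 5.26 in WT, and Bicdl1, a dynein adaptor gene, 7.24 ± 2.36 CPM in KO and 15.6 ± 2.2 in WT. The Ldlrad3 peak, whose sequence is given above, held 6.61, 5.75, 3.08, 8.73 and 6.86 CPM in KO replicates 1 to 5, and 14, 17.3, 11, 11.1 and 11.8 CPM in WT replicates 1 to 5. Its fold was 0.528 (adjusted p = 0.00827), but the adjusted p was 0.0816 without WT replicate 2 and 0.0982 by DESeq2.

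Other falls also rested on single libraries or on edgeR. The Pmp22 peak averaged 4.37 ± 1.38 CPM in KO and 9.73 ± 2.15 in WT, with adjusted p = 0.118 without KO replicate 4, 0.0675 without WT replicate 4 and 0.157 by DESeq2. The peak of Senp7, a SUMO protease gene, averaged 5.02 ± 1.25 CPM in KO and 10.5 ± 2.93 in WT, with adjusted p = 0.0595 without KO replicate 5, 0.0796 without WT replicate 5 and 0.148 by DESeq2. The Pald1 peak, nearest to the perforin gene Prf1, averaged 5.31 ± 1.95 CPM in KO and 10.8 ± 1.59 in WT, with adjusted p = 0.0504 without KO replicate 2, 0.0869 without KO replicate 5, 0.104 without WT replicate 3 and 0.180 by DESeq2. By DESeq2 the adjusted p was 0.0554 for Sulf2, a heparan sulfatase gene (6.16 ± 2.48 CPM in KO, 12.6 ± 1.95 CPM in WT), and 0.0513 for Dmbt1 (7.75 ± 1.84 CPM in KO, 15.7 ± 4.18 CPM in WT).

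No tested promoter peak of these host genes was called, but not every gene had one. For 15 of the 24 genes, 9 with a rise and 6 with a fall, the annotation also gave promoter peaks, whose levels played no part in choosing the intron peaks. Of the 19 single promoter peaks with enough counts edgeR called 0, with 1 lower at an unadjusted p under 0.05, and DESeq2 and limma-voom called none. Among all tested promoter peaks edgeR called only 1.64%, so 0 of 19 is near that share and sets these promoters apart from no others. Slc4a4 and Pald1 had no promoter peak with enough counts, and 9 of the 24 genes had no promoter peak. The intron peaks were themselves chosen for a change without overlap, so a test of their ratio to the promoter would repeat that choice, and only the values are given side by side.

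The Camk2d promoter held 107 ± 9.47 CPM in KO and 102 ± 10.8 in WT, a 1.05-fold difference beside the 22.8-fold rise of the intron peak. The Vmp1 promoter held 44.7 ± 3.44 CPM in KO and 44.6 ± 3.87 in WT. Over the 9 genes with a rise the promoter folds lay between 0.985 and 1.36, and over the 6 with a fall between 0.859 and 1.41. The Slc4a4 promoter peak held only 2.81 ± 2.1 CPM in KO and 2.66 ± 1.62 in WT.

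**Figure D4:**
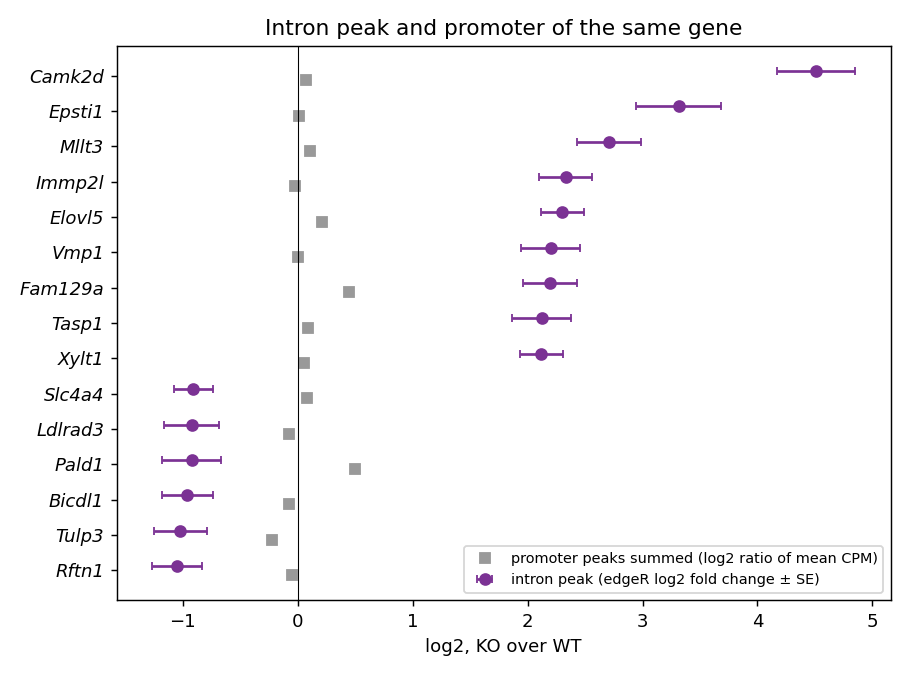
Log2 of KO over WT for the intron peak (circles, edgeR log2 fold change ± SE) and for the summed promoter peaks of the same gene (squares, log2 ratio of mean CPM) for the 15 genes with both. Promoter squares lie between 0.859-fold and 1.41-fold, while the circles of the rises lie above 2.

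Called members were spread over many genes, and a few genes held several. In all, 306 of 2479 named host genes held at least 1 called member and 40 held 2 or more, 26 of them only higher ones, 5 only lower ones and 9 both. Arid5b, which encodes an AT-rich interaction domain protein that recruits a histone demethylase, held most, 7 of 10 members, all higher. These 7 were also higher by DESeq2, by limma-voom and without the 3 libraries of lowest total, and 5 of them after thinning.

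The strongest Arid5b peak lay in intron 2 (chr10:68192726-68193224), 85502 bp from the nearest start of Arid5b. It held 35.2, 43.1, 36.9, 41.7 and 39.3 CPM in KO replicates 1 to 5, and 11, 9.15, 7.68, 9.15 and 12.4 CPM in WT replicates 1 to 5. All KO libraries lay far above all WT libraries (4.08-fold, log2 2.03 ± 0.16, adjusted p = 5.01e-18). A narrower neighbour (chr10:68192189-68192355) averaged 11.6 ± 1.24 CPM in KO and 3.26 ± 1.69 in WT.

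The most accessible called Arid5b member, in intron 5 (chr10:68105264-68105720), held 54.3, 47.9, 49.2, 50.0 and 37.1 CPM in KO replicates 1 to 5, and 18.9, 17.8, 17.3, 22.9 and 20.4 CPM in WT replicates 1 to 5, again without overlap (2.41-fold, adjusted p = 2.29e-12). The other 4 called members rose 1.58-fold to 2.44-fold. Not every peak of the gene moved, as the intron 2 peak chr10:68239112-68239552 averaged 27.1 ± 5.15 CPM in KO and 26.9 ± 2.50 in WT (adjusted p = 0.920), although a peak next to it (chr10:68240683-68241176) rose to 34.8 ± 7.86 CPM in KO, against 22.2 ± 2.05 CPM in WT. At the promoter of Arid5b, 2 of its 4 tested promoter peaks were higher, at 59.3 ± 6.08 CPM in KO against 40.6 ± 3.87 CPM in WT and 19.4 ± 4.94 CPM in KO against 11.7 ± 2.82 CPM in WT.

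**Figure D5:**
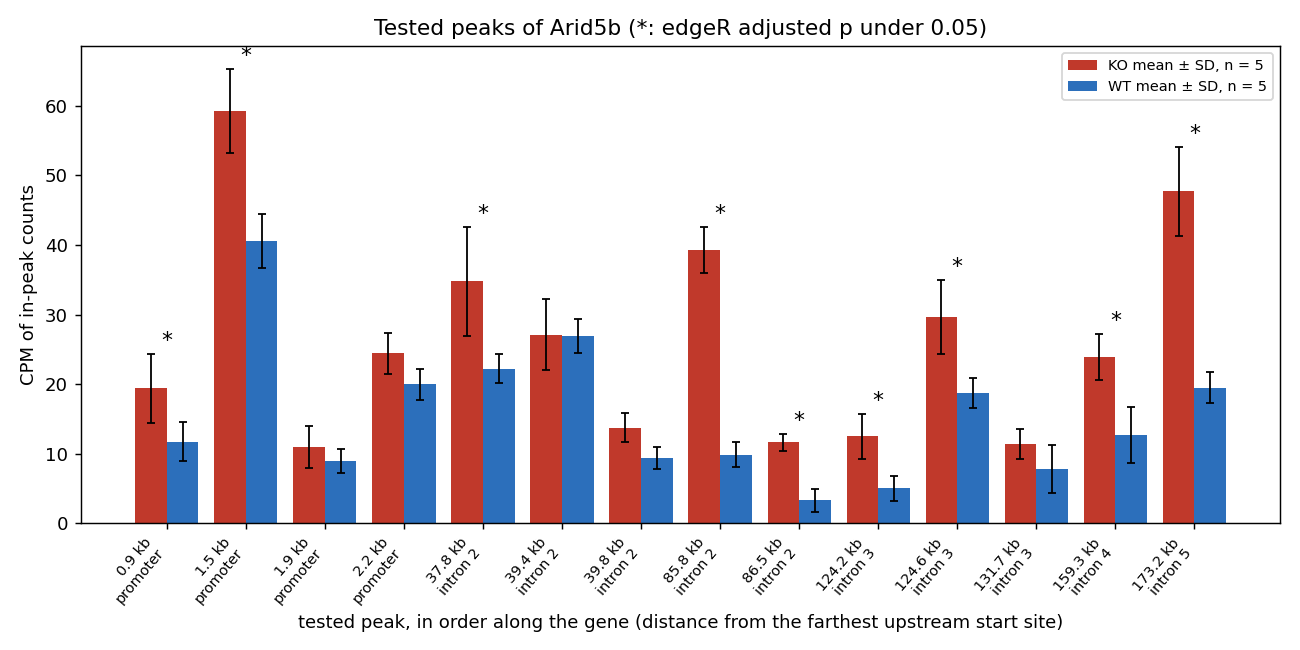
Mean level in CPM (bars, ± SD, n = 5) of the 14 tested peaks of Arid5b in order along the gene, labelled by intron and by distance from the farthest upstream start; stars mark an edgeR adjusted p under 0.05. Of 10 peaks in introns 2 to 5, 7 are higher in KO, from 37.8 kb to 173 kb inside the gene, as are 2 of 4 promoter peaks.

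Pik3r1, the regulatory subunit of phosphoinositide 3-kinase, had 3 of 10 members higher. Its intron 2 peak (chr13:101713708-101714067) averaged 20.4 ± 2.02 CPM in KO and 6.87 ± 1.79 in WT, and its intron 4 peak (chr13:101707298-101707693) 29.2 ± 4.13 CPM in KO and 12.2 ± 4.13 in WT. The third, in intron 7, had adjusted p = 0.0366 and 0.233 by DESeq2, and its call was lost without any 1 of 7 libraries (KO replicate 2, 3 or 5, WT replicate 1, 2, 3 or 5; adjusted p 0.0554 to 0.118). Akap13, a scaffold that binds protein kinase A, had 3 of 16 members higher, all in intron 8, and the strongest (chr7:75644797-75644956) averaged 10.9 ± 2.34 CPM in KO and 2.67 ± 1.30 in WT. Thinning ended the calls of that peak (adjusted p = 0.0749) and of chr7:75655743-75655997 (adjusted p = 0.268). Asap1, Arhgef3 and Cblb also had 3 higher members each, of 9, 14 and 15.

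Opposite changes within 1 gene occurred at Slc30a7, Wwox and Slc4a4. In intron 8 of Slc30a7, a zinc transporter gene that contains Mir669n, the peak chr3:115957196-115957478 averaged 11.6 ± 1.51 CPM in KO and 3.26 ± 1.32 in WT. Its call was lost on thinning (adjusted p = 0.069). In that intron but nearer the gene's start, the narrow peak chr3:115971589-115971680 averaged 3.53 ± 1.59 CPM in KO and 8.91 ± 2.47 in WT (adjusted p = 0.00885, but 0.0597 without KO replicate 4 and 0.0987 by DESeq2). The peak chr3:115974276-115974631 averaged 36.2 ± 5.96 CPM in KO and 24.7 ± 4.70 in WT (adjusted p = 0.00482, but 0.106 without KO replicate 4 and 0.115 by DESeq2). Between these last 2 lay a pair that was not called, chr3:115971975-115972215 with 20.4 ± 3.84 CPM in KO and 13.7 ± 5.64 in WT (adjusted p = 0.0564) and chr3:115972303-115972582 with 24.0 ± 5.34 CPM in KO and 21.1 ± 4.59 in WT (adjusted p = 0.654).

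Wwox, a very long gene at a fragile site, held most members, 23, of which 2 were higher and 1 lower, all within its last intron. The rise at chr8:114882131-114882412 was 1.97-fold (24.9 ± 4.04 CPM in KO, 12.3 ± 1.91 CPM in WT), and the fall at chr8:114869282-114869626 was 0.600-fold (11.7 ± 3.92 CPM in KO, 19.9 ± 4.24 CPM in WT, adjusted p = 0.00591, 0.108 by DESeq2 and 0.474 on thinning). Slc4a4 had 2 lower members and 1 higher member of 6, the higher one in intron 17 with 25 ± 4.07 CPM in KO and 13.8 ± 1.51 in WT (adjusted p = 0.583 on thinning). The lower one in intron 8 averaged 6.36 ± 2.79 CPM in KO and 11.5 ± 1.36 in WT (adjusted p = 0.0125). Its call was lost without KO replicate 1 (0.0522), KO replicate 5 (0.0621) or WT replicate 2 (0.0615). DESeq2 (0.148) and thinning (0.9) also ended it.

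Some genes held many members and no call. Of 50 hosts with 10 or more members, 16 had none called by edgeR, among them Ttc28 with 20, Rere with 16 and Runx1 with 14. Among all members 7.03% were called, and whether 16 of 50 hosts departs from what that share gives was not tested. Their 203 members included 14 with a rise and 15 with a fall at an unadjusted p under 0.05, and DESeq2 and limma-voom called none. All 160 DESeq2 calls and 327 of 337 limma-voom calls lay among edgeR's, so these 0 counts follow largely from the choice of hosts. After thinning 1 of the 203 was called higher and 1 lower, as also without the 3 libraries of lowest total.

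Gene lists were read through the host gene, beside 5.10% of all members higher and 1.93% lower. Among T helper and regulatory fate factors 15 of 98 members were higher and 0 lower (7 lower at an unadjusted p under 0.05, 0 by DESeq2 and limma-voom), with a median log2 fold change of -0.02. Arid5b supplied 7 of the 15, and without it 8 of 88 were higher, in 7 genes: Bcl11b, Ets1, Gata3, Ikzf1, Ikzf3, Prdm1 and, with 2 of its 4 members, Zfp608. The lists were chosen with earlier results of these data known, so the share of this list does not show a trait of such factors. DESeq2 called 12 of the 98 higher. At Zfp608, which encodes a zinc finger protein, the intron 3 peak averaged 26.3 ± 5.37 CPM in KO and 11.5 ± 0.893 in WT (chr18:54906589-54906936, adjusted p = 9.79e-09).

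T cell receptor and costimulation genes had 9 of 94 members higher and 1 lower, 3 of the 9 in Cblb, a ubiquitin ligase that restrains activation. At an unadjusted p under 0.05 edgeR found 12 higher and 12 lower, and the median log2 fold change was -0.02. Itpkb, a kinase that makes the soluble signal IP4, averaged 15.1 ± 3.36 CPM in KO and 4.08 ± 1.9 in WT at intron 2 (chr1:180370990-180371188). Vav3, a guanine nucleotide exchange factor, averaged 20.3 ± 4.20 CPM in KO and 7.45 ± 2.48 in WT at intron 2 (chr3:109454638-109454970). Ptpn22, a phosphatase that dampens receptor signals, held 66.1, 70.9, 60.0, 68.9 and 57.2 CPM in KO replicates 1 to 5, and 47.9, 44.7, 42.2, 37.9 and 31.6 CPM in WT replicates 1 to 5, at intron 3 (chr3:103867840-103868451). These groups did not overlap although the fold was only 1.58 (adjusted p = 1.02e-06). DESeq2 called 3 of the 94 higher and 1 lower, the same numbers as edgeR after thinning.

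Naive and quiescence genes had 4 of 72 higher and 2 lower (Bach2 and Tcf7, with Bach2 also 1 higher), near the share of all members. Il7r, the receptor of the survival cytokine IL-7, held 14.7, 15.3, 4.62, 16.0 and 12.8 CPM in KO replicates 1 to 5, and 0.997, 4.57, 3.84, 1.96 and 5.57 CPM in WT replicates 1 to 5, at intron 2 (chr15:9524070-9524272). KO replicate 3, the shallowest library, lay within the WT range, and the other 4 KO libraries above it (3.68-fold, adjusted p = 4.57e-07). Cytokine receptor, JAK and STAT genes had 4 of 56 higher and 2 lower. Il18r1 averaged 24.4 ± 2.67 CPM in KO and 13.8 ± 2.85 in WT at intron 2 (adjusted p = 0.437 on thinning), and Smad4, the common mediator of TGF-beta signals, 7.28 ± 2.32 CPM in KO and 14.3 ± 4.78 in WT at intron 7 (adjusted p = 0.00269, 0.0620 by DESeq2 and 0.149 on thinning).

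Adhesion, migration and cytoskeleton genes had 7 of 57 higher and 0 lower, with 0 lower also at an unadjusted p under 0.05, by DESeq2 and by limma-voom, and a median log2 fold change of 0.11. DESeq2 called 2 of the 57 higher, and after thinning 1 was. Dock10, an exchange factor for small GTPases, averaged 16.1 ± 4.01 CPM in KO and 4.41 ± 2.03 in WT at intron 2 (chr1:80643971-80644239). Chromatin organisers and remodellers had 6 of 85 higher and 1 lower. Arid1b, a subunit of BAF complexes, averaged 18.8 ± 3.34 CPM in KO and 6.73 ± 2.54 in WT at intron 3, and Tet3, which oxidises methylcytosine, 11 ± 2.34 CPM in KO and 4.41 ± 2.11 in WT at intron 2 (adjusted p = 0.0699 on thinning).

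Dnmt3a, a DNA methyltransferase, was the lower one of that list. At intron 4 (chr12:3870877-3871457) it held 29.4, 35.5, 38.5, 31.5 and 38.0 CPM in KO replicates 1 to 5, and 54.8, 43.7, 49.0, 60.1 and 50.1 CPM in WT replicates 1 to 5. The groups did not overlap (0.675-fold, adjusted p = 0.000189), but the call was lost on thinning (adjusted p = 0.188).

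Calcium and NFAT genes had 2 of 38 higher, Camk2d and Nfatc1, and 2 lower, Itpr1 and Itpr2, the last pair being channels that release stored calcium. The Itpr1 peak averaged 6.86 ± 0.858 CPM in KO and 13.3 ± 4.54 in WT (adjusted p = 0.0114), a call lost without WT replicate 2 (0.117), without WT replicate 5 (0.0640), by DESeq2 (0.124) and by limma-voom (0.0594). The Nfatc1 peak in its last intron was among the more accessible called members, with 68.5 ± 7.97 CPM in KO and 52.4 ± 6.80 in WT (1.30-fold, adjusted p = 0.00920). That call was lost without KO replicate 1 (0.0733), without WT replicate 5 (0.0738) and by DESeq2 (0.144). Interferon response genes had 2 of 7 higher, Epsti1 and Ifih1, the Ifih1 call (10.2 ± 2.52 CPM in KO, 5.02 ± 2.38 CPM in WT, adjusted p = 0.0442) being lost without any 1 of KO replicates 2 to 5 or WT replicates 1, 2, 3 and 5 (adjusted p 0.0524 to 0.142) and by DESeq2 (0.253).

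The lists without a call in edgeR, DESeq2 or limma-voom were NF-kappaB and TNF receptors (16 members; unadjusted p under 0.05 for 2 higher and 0 lower), activation, memory and inhibitory receptors (8 members, 0 higher and 1 lower), apoptosis and survival (11 members, 1 higher and 0 lower) and oestrogen receptor response (10 members, 0 higher and 2 lower). Markers of other cells added few members: 0 of 2 B cell members and 0 of 6 erythroid, endothelial and stromal members were called (0 and 1 at an unadjusted p under 0.05, 0 by both other tools). Of 3 myeloid members 1 was higher, in the last intron of Itgam (16.1 ± 5.61 CPM in KO, 6.85 ± 1.45 CPM in WT, adjusted p = 6.84e-06, 0.059 on thinning), with Itgax as the nearest gene. Beside it, the Itgam promoter averaged 4.69 CPM in KO and 6.12 in WT. Of 9 CD8, NK and innate lymphoid members 1 was higher, in Klrb1c (15.0 ± 1.30 CPM in KO, 9.67 ± 0.450 CPM in WT, adjusted p = 0.0464), a gene without a promoter peak. That call was lost without any 1 of the libraries other than KO replicate 2 (adjusted p 0.0574 to 0.180) and by DESeq2 (0.351).

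Shares of calls were near each other across positions within the gene. In intron 2, which held 1521 members (29.4%), 5.13% were higher and 1.91% lower, in introns 3 to 5 it was 5.45% and 1.48%, in introns 6 to 10 it was 5.66% and 2.24%, and from intron 11 on 3.67% and 2.53%. In the last intron 5.03% were higher and 1.38% lower. Where the nearest start was that of the host gene, as for 2915 members (56.3%), 5.25% were higher and 1.96% lower, against 4.90% and 1.9% where it was that of another gene.

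Shares spread more widely with distance and width, and none of these differences was tested. At 3 to 10 kb from the nearest start 3.91% of members were higher and 1.26% lower, at 10 to 30 kb 3.48% and 2.63%, at 30 to 100 kb 5.98% and 1.46%, and at 100 kb or more 8.02% and 2.25%, so neither share followed distance throughout. The median distance was 47.8 kb for higher members and 27.8 kb for lower ones, against 30.9 kb for all. Peaks of 300 bp or more were higher in 8.33% and lower in 4.14%, and those under 200 bp in 1.49% and 0.401%. Wide peaks also held more counts, with a median summed count of 375 against 124. Within the band of 150 to under 250 counts the shares were 8.75% and 2.50% for the wide peaks and 2.23% and 0.495% for the narrow ones. The part of counts in the difference was not tested. Hosts with 1 member had 3.45% higher and 1.89% lower, and hosts with 5 or more, which include Arid5b, 6.85% and 1.84%.

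The 6 members with most counts per length were not called. With 7.03% of all members called, 6 are too few to show a difference from that share. Chd2, a chromatin remodeller, had 212 CPM per kb of peak averaged over all libraries, and its intron 2 peak (chr7:73537664-73538118) held 94.2 ± 10.3 CPM in KO and 98.9 ± 13.1 in WT. The other 5 by level per kb were Ywhaz, Zfp553, Myh9, Il6ra and Ago2. Zfp553, whose peak is nearest to Fbrs, had the highest level not scaled for length among them, with 174 ± 26.0 CPM in KO and 183 ± 19.2 in WT. Of the 6, edgeR called 0, with 0 at an unadjusted p under 0.05, and DESeq2 and limma-voom called none.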

How the data were processed

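Per the labels, ATAC libraries of 60000 cells were sequenced as single reads of 75 bp. The authors deposited whole-number read counts, not normalized, per peak of 1 common set, with an annotation of each peak. The submitters' processing notes name Trimmomatic 0.36, Bowtie2 2.3.5, Picard, MACS2 2.1.2, ChIPseeker 1.18.0 and mm10; whether reads were shifted to the cut site, how duplicates were treated and how peaks were pooled are steps not given in the sources used here. How these steps bear on the counts was not tested.

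All 34198 nuclear peaks with a summed count of at least 100 (a filter blind to the groups; 10 mitochondrial peaks of 61581 left out) were fitted with edgeR 4.0.16 in R 4.3.3 (glmQLFit, glmQLFTest, TMM, no covariate), with Benjamini-Hochberg adjustment over all of them and a threshold of 0.05. Library size was the nuclear in-peak total. SE was derived from the F statistic, and the printed fold includes edgeR's small prior count. Groups do not overlap where log2 CPM (prior count 2) of all libraries of one lie on one side of the other. Intron to promoter ratios used log2(CPM + 0.5) and Benjamini-Hochberg adjustment over 15 genes. The host gene is the gene ID written in the intron annotation; its symbol came from the deposited file for 4680 members, from RefSeq for 371 and was missing for 127. Sequences and their positions are RefSeq's, build GRCm38.p6. Peak coordinates are mm10 as deposited.

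Named members were the 12 largest rises and falls among called members without overlap, 1 per host and without predicted genes, up to 3 per gene list by adjusted p, the 6 hosts with most calls, Satb1 and the 6 highest members per kb. Those named from start windows and microRNA genes, Asap1, Arhgef3, Cblb, the uncalled Arid5b peak and list genes given without values were chosen after their values were seen. Members and lists were chosen with earlier results of these data known. Values of 1 gene of the naive list are not reported here, though counts include it. The tests were also run on simulated counts, for edgeR with the same dispersion at all peaks and with independent libraries. That run does not give the rate of false calls in these data. Alternatives used DESeq2 1.42.0 and limma 3.58.1.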

Additional observations from a re-analysis of the deposited data

Results flagged for a closer look

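Within each group of 5 libraries, the highest or lowest library of each named member was compared with the others by Dixon's criterion (critical value 0.71). It stood apart in 9 of 154 groups, and chance flags about 1 in 20 groups, so this number is near what chance gives. None of these was weighed further.

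At the Il7r intron 2 peak KO replicate 3 held 4.62 CPM, below the next KO library at 12.8 CPM, and at the Pik3r1 intron 4 peak KO replicate 2 held 36.4 CPM, above the next at 27.9 CPM. WT replicate 5 was low at 2 Arid5b peaks of intron 3, with 1.86 CPM (next 5.23 CPM) and 14.8 CPM (next 19.2 CPM), and high at the Dmbt1 peak with 22.9 CPM (next 14.7 CPM). WT replicate 2 was high at Xylt1 with 8.13 CPM (next 6.24 CPM) and at Arhgef3 with 38.6 CPM (next 32.2 CPM). WT replicate 4 was low at the Satb1 intron 5 peak chr17:51800291-51800575 with 15.0 CPM (next 19.9 CPM) and high at Zfp553 with 217 CPM (next 178 CPM).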

How the results depend on the processing

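Beside 264 higher, 100 lower and 364 called members in all, a minimum summed count of 200 left 2282 members with 146 higher, 59 lower and 205 in all, and a minimum of 50 gave 324, 118 and 442. Thinning to the smallest total gave 104, 17 and 121, and DESeq2 138, 22 and 160, all 160 of them among the 364. Without the 3 libraries of lowest total (KO replicates 2 and 3, WT replicate 1) 232 were higher and 66 lower. Without members nearest to the start of another gene, which removes 2263 members, 153, 57 and 210 were called. Leaving out 1 library at a time gave 194 to 272 higher, 68 to 106 lower and 289 to 348 in all, the fewest higher without KO replicate 4. Merging libraries within counting noise gave 232 higher and 71 lower. RLE scaling, no scaling factor, filterByExpr, no filter and limma-voom gave 247 to 263 higher and 83 to 107 lower. The log2 ratio of intron peak to promoter passed a two-sided exact permutation test for 14 of 15 genes, for 13 to 15 without single libraries and for 13 with the most accessible promoter peak alone, but the intron peaks were chosen for not overlapping between groups, so these counts follow from that choice and support nothing. Of 65 named calls, 33 held in each alternative that gave a value; thinning ended 30, DESeq2 17 and leaving out the 3 shallowest libraries 8, and none reversed. The cause of these differences was not tested.

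Depth limits the single members, which held a median of 8 to 26 counts per library. No paired analysis was possible because the labels give running library numbers that link no KO library to a WT library.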

Other observations

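Among the members whose nearest annotated start was that of a microRNA gene, several lower ones were not described above and were picked after their values were seen. In intron 2 of Gtf2ird1, a gene of the TFII-I family of regulators, the peak chr5:134370782-134371238 (nearest to Mir3965) averaged 13 ± 2.38 CPM in KO and 22.7 ± 4.28 in WT. In intron 2 of Fam114a1 the peak chr5:64989882-64990311 (nearest to Mir574) averaged 11.4 ± 3.22 CPM in KO and 20.7 ± 3.64 in WT, whereas a second called member of that gene in intron 7 (chr5:65019184-65019560, also nearest to Mir574) was higher, at 23.0 ± 4.13 CPM in KO and 16.1 ± 2.31 in WT (edgeR's adjusted p = 0.0219). In intron 4 of Zfhx3, a homeobox factor gene, the peak chr8:108887214-108887585 (nearest to Mir3108) averaged 25.4 ± 5.42 CPM in KO and 38.6 ± 4.14 in WT (SD, n = 5 each). KO and WT libraries did not overlap at these 3 lower peaks (edgeR's adjusted p = 0.000173 in Gtf2ird1, 0.00357 in Fam114a1 and 0.000749 in Zfhx3). Nor did they at a lower peak in intron 7 of Msi2, nearest to Mir378b. It averaged 22.1 ± 3.44 CPM in KO and 32.9 ± 3.00 in WT (edgeR's adjusted p = 0.00780). At the lower peaks of Itpr1 and Slc30a7 given above the groups overlapped.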
